A study of Mus musculus with 7 samples.

Results

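The immunoglobulin gene segments of the mouse, as they stand in the gene annotation that the authors deposited with an intestinal single-cell RNA sequencing study, are described here. Every gene record whose class begins with IG_ was taken, which gave 427 of the 32286 genes in the annotation. They comprised 218 variable (V) genes and 158 V pseudogenes, 19 diversity (D) segments, 14 joining (J) segments, 13 constant (C) genes, 1 C pseudogene and 4 genes of the class LV, a class name that the annotation does not explain.

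The study itself sequenced stromal cells sorted for a green fluorescent reporter of Rspo3, a secreted factor that amplifies Wnt signalling. All 7 samples came from Rspo3-GFP transgenic mice on a C57Bl6 background, aged 8 to 12 weeks, and the sorted cells were GFP positive, Epcam negative and CD45 negative. The groups were untreated small intestine (2 samples), unirradiated control small intestine (2 samples), small intestine of mice irradiated with 12 Gy (2 samples) and untreated colon (1 sample), and whether each sample is an animal of its own is not said in the labels. Only the gene annotation was used, so expression, sequencing depth and the marker genes of the sorted cells were not analysed here, no group was compared with another, and all values below are positions, lengths and sequences of gene models, which have no replicates.

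Antibodies are built from heavy chains and from kappa or lambda light chains. In developing B cells the DNA of each chain's locus is cut and rejoined, so that a V segment, in the heavy chain also a D segment, and a J segment form the exon of the antigen-binding domain, which is then spliced to a C gene. The C gene sets the antibody class, and in gut tissue plasma cells making the IgA class are abundant. B cells and plasma cells were not the cells sorted in this study.

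The ends of the V segments, the D segments and the J segments are the parts that are joined, and their sequences are given first for that reason. All were read from GENCODE M21 transcripts of GRCm38, in which 427 of 427 segments were found with the same identifier, version and transcript length as in the deposited annotation. For D and J segments the transcript of the segment's own class is printed, since 4 of them (Ighd5-6, Ighj2, Igkj2 and Igkj5) also had a longer transcript annotated as a long non-coding RNA, of 12, 54, 43 and 42 bases against 10, 48, 39 and 38. The last 45 bases of the most distal and the most proximal V gene of each main locus, distal meaning farthest upstream of the J segments, and of the most proximal heavy chain V pseudogene were as follows, with capitals marking the motif TANTNNTGN, in which N stands for any base and which covers the tyrosine and cysteine codons near the end of a V segment.
Ighv1-85, heavy chain, most distal V gene, chr12:116000028-116000072, minus strand: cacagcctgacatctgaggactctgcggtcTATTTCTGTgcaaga
Ighv5-2, heavy chain, most proximal V gene, chr12:113578504-113578548, minus strand: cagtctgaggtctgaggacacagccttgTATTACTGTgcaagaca
Ighv5-1, heavy chain, most proximal V pseudogene, chr12:113572927-113572971, minus strand: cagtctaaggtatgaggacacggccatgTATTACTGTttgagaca
Igkv2-137, kappa chain, most distal V gene, chr6:67556172-67556216, plus strand: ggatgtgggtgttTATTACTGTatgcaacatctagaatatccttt
Igkv3-1, kappa chain, most proximal V gene, chr6:70704133-70704177, plus strand: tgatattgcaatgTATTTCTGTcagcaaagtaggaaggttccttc
Iglv2, lambda chain, most distal V gene, chr16:19260401-19260445, minus strand: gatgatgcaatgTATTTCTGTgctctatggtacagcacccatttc
Iglv1, lambda chain, most proximal V gene, chr16:19085017-19085061, minus strand: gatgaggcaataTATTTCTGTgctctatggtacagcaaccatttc

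The motif stood in the last 45 bases of 209 of the 218 V genes (95.87%) and of 85 of the 158 V pseudogenes (53.8%). It was found in the last 45 bases of 5816 of all 141693 M21 transcripts of that length or longer (4.105%) and of 109 of the 144 T cell receptor V genes (75.69%). On the reverse strand of the same windows it stood in 22 V genes and 13 V pseudogenes, all of them kappa, and in 7820 of the 141693 transcripts. By locus, 108 of 113 heavy, 99 of 102 kappa and 2 of 3 lambda V genes held the motif, so the shares of the heavy and kappa genes were alike. The 9 V genes without a match were Ighv2-7, Ighv3-8, Ighv8-2, Ighv1-62-1, Ighv8-9, Iglv3, Igkv4-78, Igkv6-29 and Igkv6-20. The window and the motif were both chosen after V ends had been read, and a match or its absence describes letters only.

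D segments supply the middle of the most variable loop of the heavy chain, and the 19 annotated ones held 14 different sequences. Those of the Ighd2 family, 17 bases each, are listed with capitals at the 7 positions where they differ among themselves.
Ighd2-3, chr12:113475400-113475416, minus strand: TctaTGatGGtTacTac
Ighd2-4, chr12:113470694-113470710, minus strand: TctaCTatGAtTacGac
Ighd2-5, chr12:113466027-113466043, minus strand: CctaCTatAGtAacTac
Ighd2-6, chr12:113461369-113461385, minus strand: CctaCTatAGtAacTac
Ighd2-7, chr12:113456720-113456736, minus strand: TctaCTatGGtTacGac
Ighd2-8, chr12:113450851-113450867, minus strand: TctaCTatGGtAacTac
Ighd2-5 and Ighd2-6 were the same in all 17 bases, so the 6 segments gave 5 sequences. The pair of 23 bases, Gm16968 at the distal end of the D region and Ighd1-1, differed at 7 positions, shown in capitals.
Gm16968, chr12:113528032-113528054, minus strand: tAtatAactaAAgtGgtagctCA
Ighd1-1, chr12:113482170-113482192, minus strand: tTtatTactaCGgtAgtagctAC
The shorter and longer classes varied less. The 5 segments of the 10-base class, Ighd5-2 to Ighd5-6 (the last by the transcript of its own class), had 1 variable position, at which Ighd5-5 alone differed, and the 3 segments of 29 bases, Gm37327, Ighd5-7 and Ighd5-8, also had 1.
Ighd5-2, as Ighd5-3, Ighd5-4 and Ighd5-6, chr12:113469426-113469435, minus strand: gaAtacctac
Ighd5-5, chr12:113454942-113454951, minus strand: gaCtacctac
Gm37327, as Ighd5-7, chr12:113469189-113469217, minus strand: agGcagctagcctctgcagtgccacaacc
Ighd5-8, chr12:113459864-113459892, minus strand: agAcagctagcctctgcagtgccacaacc
Ighd4-1, the D segment next to the J segments, had 11 bases, and the Ighd3 segments, Ighd3-1 and Ighd3-2, had 17 and 16 bases.
Ighd4-1, chr12:113430528-113430538, minus strand: ctaactgggac
Ighd3-1, chr12:113525313-113525329, minus strand: ggcacagctcgggctac
Ighd3-2, chr12:113448214-113448229, minus strand: agacagctcaggctac

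J segments encode the last strand of the variable domain, and their known landmark is a tryptophan codon in the heavy chain, or a phenylalanine codon in the light chains, followed by glycine codons. That landmark was searched on both strands as TGGGG, or as TTCGG in the light chain form, followed by any 4 bases, GG and any base. The heavy and kappa J segments and 3 lambda ones are listed, with the landmark in capitals where it was found.
Ighj1, chr12:113429781-113429833, minus strand: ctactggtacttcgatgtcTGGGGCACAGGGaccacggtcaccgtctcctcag
Ighj2, chr12:113429468-113429515, minus strand: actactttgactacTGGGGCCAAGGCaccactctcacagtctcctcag
Ighj3, chr12:113429085-113429132, minus strand: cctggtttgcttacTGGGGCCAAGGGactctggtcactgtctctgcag
Ighj4, chr12:113428514-113428567, minus strand: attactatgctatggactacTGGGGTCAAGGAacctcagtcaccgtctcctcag
Igkj1, chr6:70722562-70722599, plus strand: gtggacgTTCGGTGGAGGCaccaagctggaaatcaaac
Igkj2, chr6:70722916-70722954, plus strand: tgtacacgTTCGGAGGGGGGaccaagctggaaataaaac
Igkj3, chr6:70723223-70723260, plus strand: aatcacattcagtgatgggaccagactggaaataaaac
Igkj4, chr6:70723548-70723585, plus strand: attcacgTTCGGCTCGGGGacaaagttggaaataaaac
Igkj5, chr6:70723886-70723923, plus strand: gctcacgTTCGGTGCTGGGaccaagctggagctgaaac
Iglj1, chr16:19063225-19063262, minus strand: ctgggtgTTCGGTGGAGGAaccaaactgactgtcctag
Iglj4, chr16:19196495-19196536, minus strand: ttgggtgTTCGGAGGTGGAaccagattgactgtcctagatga
Iglj3p, chr16:19066371-19066408, minus strand: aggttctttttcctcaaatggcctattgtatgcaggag
All 4 heavy chain J segments held the tryptophan form, each with 34 bases from the start of the motif to the end of the segment. The phenylalanine form stood in 8 of the 10 light chain J segments, 31 bases from the end of the transcript printed except in Iglj4, where it was 35 bases. Neither motif was found on the reverse strand of any J segment. Among the 70 T cell receptor J genes 3 held the first motif (4.286%) and 11 the second (15.71%). The second motif holds the phenylalanine codon TTC alone, so these counts leave out segments with the codon TTT. They do not give the share of J genes that encode the landmark.

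The light chain J segments without the motif were Igkj3 and Iglj3p. Counted from 1 at the 5′ end of the segment, with the motif's base first, Igkj3 differed from the motif at 1 of its 7 fixed positions, G11A. Iglj3p differed at 5 of the 7, which were C10T, G11T, G12C, G17A and G18A. In both segments the motif was set to begin at base 8, where it begins in Igkj1, and was not aligned to them. Igkj3 is known as a kappa J segment that is not used in functional chains, and whether the mismatch bears on that was not tested.

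The segments lay in 3 main loci, which held 422 of the 427, and in 2 small groups outside them, with neighbours on 1 chromosome joined where they lay within 1 Mb. The heavy chain locus, chr12:113254830-116010093, spanned 2755.3 kb with 228 segments. The kappa locus, chr6:67555497-70726966, was longer at 3171.5 kb but held 182 segments, and the lambda locus, chr16:19061618-19260859, spanned 199.2 kb with 12. The records of the segments themselves, introns included, covered 4.65% of the heavy, 2.882% of the kappa and 2.389% of the lambda locus. No immunoglobulin segment was annotated on an unplaced scaffold.

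**Figure D1:**
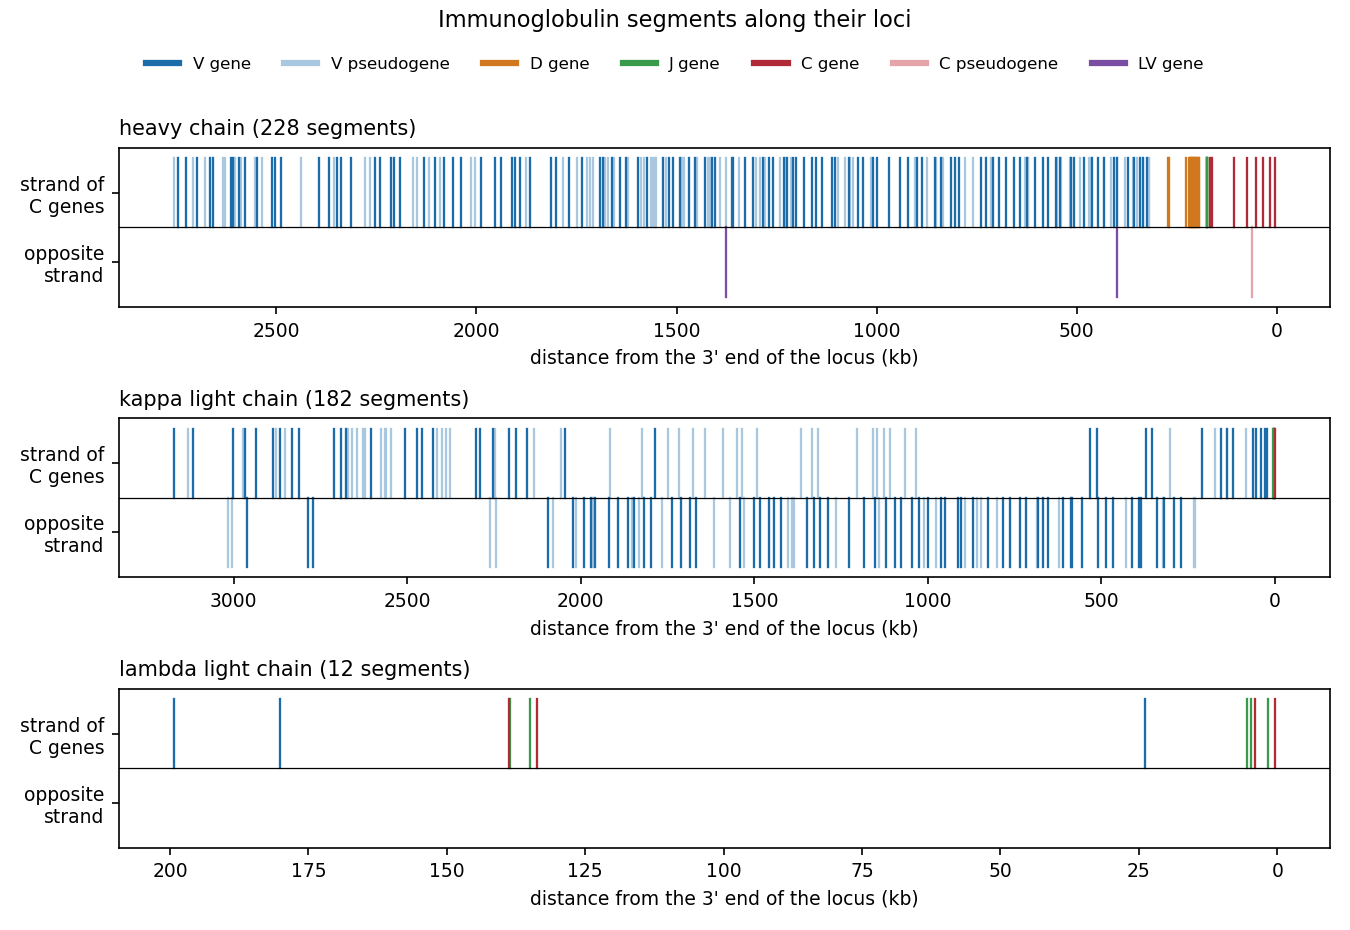
Positions of the 422 segments of the heavy, kappa and lambda loci, drawn as 1 line per segment at its distance in kb from the 3′ end of the locus, with colours for the segment class and with lines up for the strand of the C genes and down for the opposite strand. Only the kappa locus has V segments on both strands, 82 up and 94 down, whereas the heavy locus has 3 lines down, none of them a V gene or V pseudogene.

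The heavy chain V region held 113 V genes and 81 V pseudogenes over 2437.2 kb, all 194 on the minus strand like the D, J and C genes that follow them. It ran from the pseudogene Ighv1-86, chr12:116009659-116010093, at the distal end to the pseudogene Ighv5-1, whose end lay 44.87 kb before the first D segment. Ighv5-2 was the most proximal V gene, 50.45 kb from that D segment. Neighbouring V segments were a median 11.15 kb apart, end to start, with quartiles of 6.344 and 15.92 kb. The closest pair was Ighv5-1 and Ighv2-1, with 842 bases between them, and the farthest was Ighv8-5 and Ighv1-50, with 51.74 kb.

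Heavy chain V families, read from the symbols, occupied different parts of the locus. Ighv1, the family of most segments, had 92 members (53 genes and 39 pseudogenes) and took up ranks 1 to 123 of the 194 V segments, counted from the distal end. Within its 1658.4 kb stood 31 segments of other families or without a family symbol, among them most of the 16 Ighv8 segments, which ranged over ranks 13 to 124. At the other end, Ighv5 with 21 segments reached from rank 126 to rank 194, and Ighv2 with 11 from rank 158 to rank 193. The other families were small, and their ranges overlapped those of Ighv1 or Ighv5: Ighv3 had 8 segments, Ighv6 had 7, and Ighv7, Ighv9, Ighv10 and Ighv14 had 4 each. Neighbours shared a family in 86 of 193 pairs (44.56%). Pseudogenes made up 41.75% of the heavy V segments, and their share was between 32.14% and 52.17% in each of the 5 equal stretches of the V region.

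**Figure D2:**
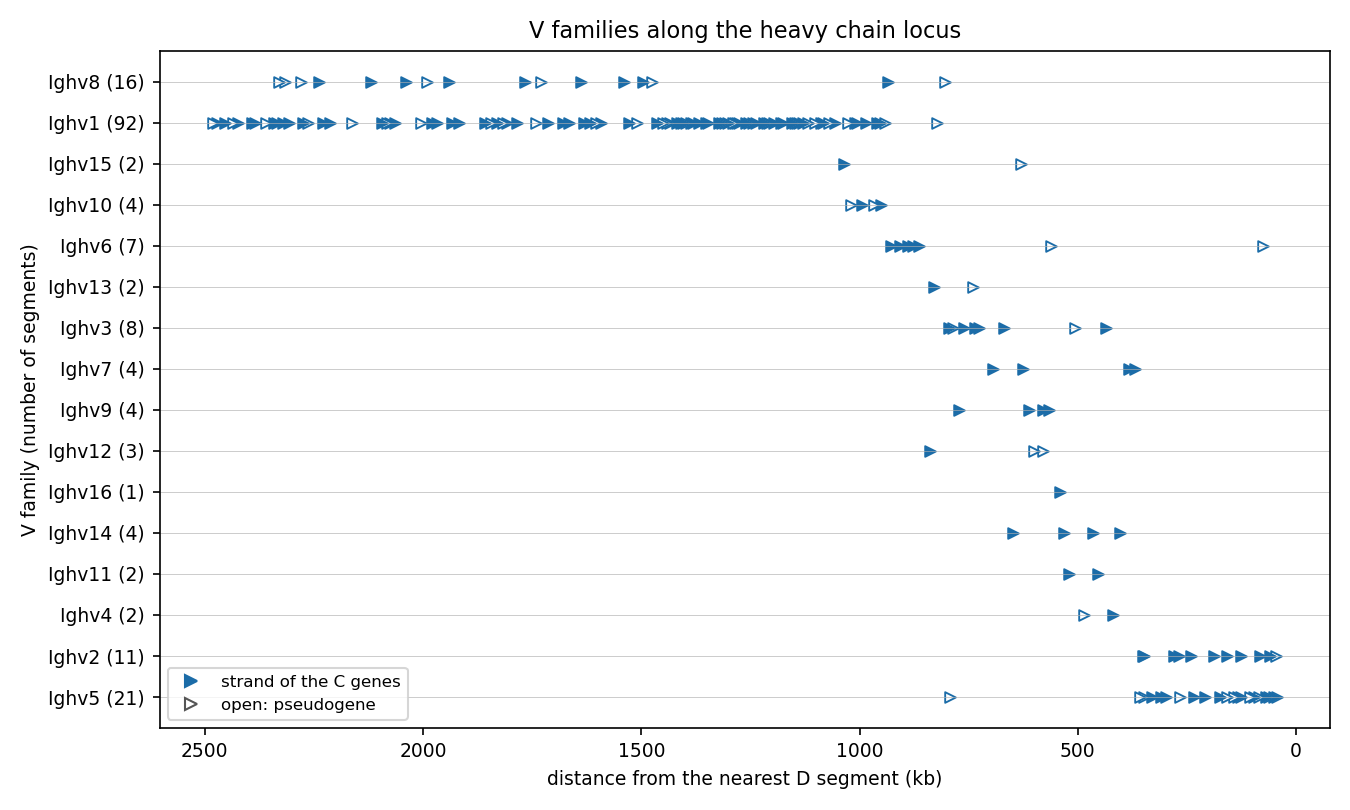
Heavy chain V segments by family, each at its distance in kb from the nearest D segment, with filled symbols for genes, open symbols for pseudogenes and the number of segments after the family name. The 92 Ighv1 segments fill the distal part, and the 21 Ighv5 and 11 Ighv2 segments lie nearest to the D segments, apart from 1 Ighv5 pseudogene.

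The D region followed with 19 segments from Gm16968 to Ighd4-1. The 3 longest steps between neighbours differed in length: 43.12 kb lay between Ighd3-1 and Ighd1-1, 17.68 kb between Ighd3-2 and Ighd4-1, and 6.753 kb between Ighd1-1 and Ighd2-3. In the middle of the region, a unit of a 17-base, a 10-base and a 29-base segment was present 3 times. Its members were Ighd2-4, Ighd5-2 and Gm37327 in the most distal unit, Ighd2-5, Ighd5-3 and Ighd5-7 in the next, and Ighd2-6, Ighd5-4 and Ighd5-8 in the most proximal. The distance from the 10-base to the 29-base segment was 208 bases in all 3 units, and that from the 17-base to the 10-base segment was 1258, 1256 and 1258 bases. The units repeated after 4665 and 4660 bases. In the M21 release a further pair with the same 208-base distance, Ighd6-2 and Gm37227, was annotated as pseudogenes upstream of these units, and it had no match among the deposited gene records.

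**Figure D3:**
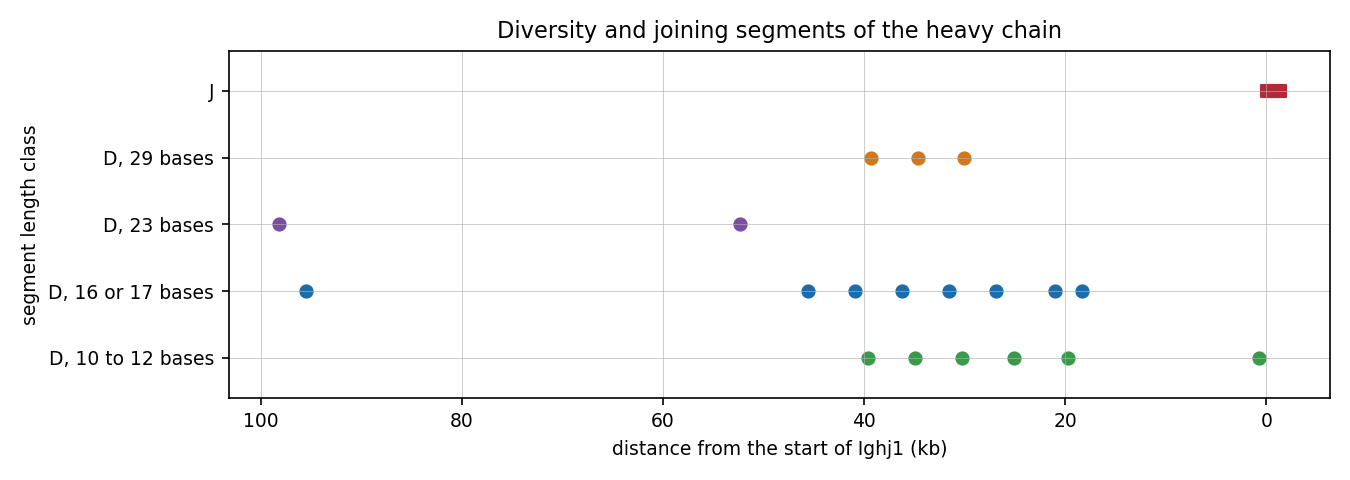
The 19 D segments and 4 J segments of the heavy chain at their distance in kb from the start of Ighj1, in rows by segment length. The 29-base, 10-base and 17-base segments recur at a regular step in the middle of the region, and Ighd4-1, of 11 bases, lies alone next to the J segments.

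From the D region to the heavy chain C genes the order was compact at first and then wide. Ighd4-1 lay 694 bases before Ighj1, and the 4 J segments were 213, 335 and 517 bases apart by their gene records, the first of which is 265 bases without the non-coding transcript of Ighj2. Ighm, the gene of the IgM class, began 5783 bases after Ighj4, and Ighd, of the IgD class, followed 2233 bases after Ighm. The next step, from Ighd to Ighg3, was 45.37 kb and the longest between C genes. The other genes of the IgG, IgE and IgA classes came in the order Ighg1, Ighg2b, Ighg2c, Ighe and Igha, of which Igha, chr12:113254830-113260236, closed the locus. Gm37944, the only C pseudogene, chr12:113315712-113317877, lay between Ighg1 and Ighg2b on the plus strand, opposite to all 8 heavy C genes, and had 3 exons of 414 bases in all.

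Each of the 8 heavy chain C genes had 2 annotated transcripts that ended at different places. In B cell biology the near end gives the secreted antibody and the far end, through added exons, the form that sits in the membrane as the B cell receptor. The ends were between 1.914 kb apart in Ighe and 3.872 kb apart in Igha. Igha had 3 exons in the near form and 4 in the far form, Ighd had 4 and 5, and the other 6 genes had 4 and 6. In 5 genes, Igha, Ighg2b, Ighg1, Ighg3 and Ighd, the last 500 exonic bases of the forms shared no base, whereas Ighe shared 282, Ighg2c 285 and Ighm 107. The far models of Ighe and Ighg2c stop at the stop codon, so their last 500 bases reach back into shared exons. Their end distances rest on those shorter models.

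**Figure D4:**
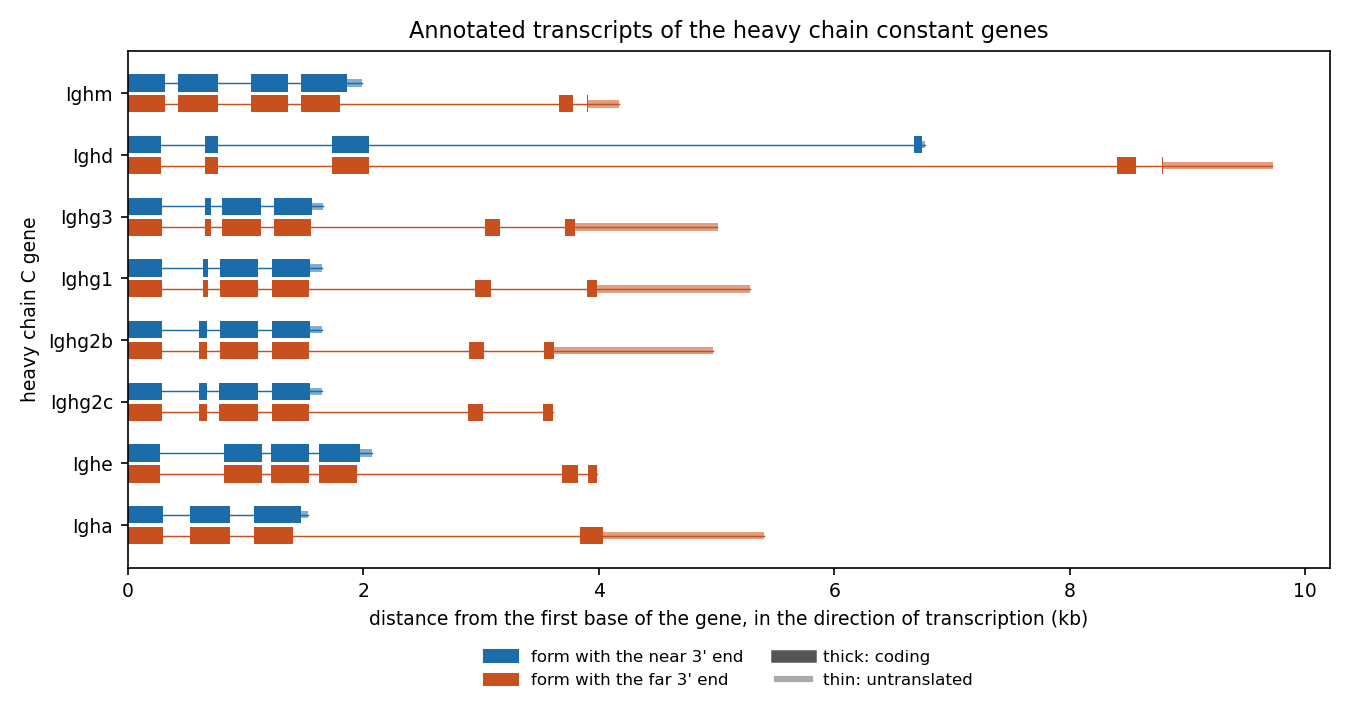
Annotated transcripts of the 8 heavy chain C genes by distance in kb from the first base of the gene, with thick boxes for coding and thin boxes for untranslated exon parts. The near form (blue) ends inside or shortly after the exons that both forms share, except in Ighd, and the far form (orange) adds 1 or 2 exons. The far forms of Ighg2c and Ighe have no untranslated part.

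Near and far forms also differed in their untranslated 3′ ends. The far form of Igha had 1371 untranslated bases after its stop codon against 66 in the near form, Ighg2b had 1349 against 104, Ighg1 1301 against 102, Ighg3 1215 against 90, and Ighd 931 against 26. Ighm had 268 against 126. For Ighg2c and Ighe the order was the other way round, since their far forms were annotated only to the stop codon, with 104 and 99 bases in the near forms. A polyadenylation hexamer, AATAAA or ATTAAA, stood in the last 50 bases of all 18 C gene transcripts with 50 or more untranslated 3′ bases. Among the longest transcripts of protein-coding genes with such a 3′ end the share was 13339 of 17749 (75.15%).

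What the near form adds to the shared coding sequence is short, and it is printed because it is the coding sequence that the secreted form has and the membrane form lacks. In 7 of the 8 genes the near form reads on past the place where the far form splices, and the first capitals mark the 4 bases at that splice donor. The last capitals mark the stop codon.
Ighm, chr12:113420867-113420928, minus strand: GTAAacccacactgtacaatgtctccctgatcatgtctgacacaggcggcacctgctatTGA
Igha, chr12:113258768-113258829, minus strand: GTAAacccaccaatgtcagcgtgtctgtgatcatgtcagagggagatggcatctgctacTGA
Ighe, chr12:113271273-113271298, minus strand: GTAAcacctccctccatccctccTAG
Ighg1, chr12:113328976-113328983, minus strand: GTAAaTGA
The additions of Ighm and Igha were both 59 coding bases. Those chains are known to form multimers through a tailpiece at this end. Ighe added 23 coding bases, and all 4 IgG genes, Ighg1, Ighg2b, Ighg2c and Ighg3, added 5, with the same 8 bases including the stop codon. Ighd differed in that its 65 coding bases stood in an exon of their own, at chr12:113409578-113409645.

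The first exons of the C genes, which encode the first constant domain, were compared by global alignment. IgG genes were alike, with identities from 79.05% (Ighg3 with Ighg2b or Ighg2c) to 88.47% (Ighg1 with Ighg2b). Every pair that joined Ighm, Ighd or Igha to another heavy C gene was between 52.8% and 60.37%, and Ighe was 60.06% to 64.31% identical to the IgG genes. Of the IgG genes, Ighg3 was thus the least like the other 3.

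The kappa locus had 102 V genes and 74 V pseudogenes before 5 J segments and a C gene, Igkc, chr6:70726435-70726966, which encodes the only kappa constant domain. V segments on the strand of the C gene join by deleting the DNA in between, and those on the opposite strand join by inverting it. In the deposited annotation 94 of the 176 V segments (53.41%) lay opposite to Igkc, among them 64 of the 102 V genes (62.75%) and 30 of the 74 pseudogenes (40.54%). No heavy or lambda V segment lay opposite to its C genes. Orientation was not spread evenly: over 5 equal stretches of the V region from the distal end, 16.13%, 36.67%, 68.29%, 81.58% and 52.78% of the V segments were opposite.

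Runs of V segments on 1 strand numbered 63 along the kappa locus, of which 38 were of 1 segment. The longest run held 27 segments, from Igkv4-50 to Igkv8-27, all opposite to Igkc. With V genes alone there were 15 runs, and the longest held 40 genes. The V region began with Igkv2-137, chr6:67555497-67556216, and ended with Igkv3-1, 18.38 kb before Igkj1. Neighbouring V segments were a median 14.99 kb apart, with quartiles of 8.724 and 22.89 kb. The closest pair, Igkv3-9 and Igkv3-8, had 97 bases between them and the farthest pair, Igkv1-135 and Igkv14-134-1, had 100.7 kb.

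Part of the alternation came from the families Igkv4 and Igkv13, which lay interleaved. All 33 Igkv4 segments, 26 of them genes, were opposite to Igkc. Of the 18 Igkv13 segments 16 were pseudogenes, and 17 were on the strand of Igkc. All 18 Igkv13 segments stood next to an Igkv4 segment, which gave 33 such neighbour pairs, 32 of them on opposite strands. Where the Igkv13 segment came first from the distal end (17 pairs), the distance was a median 7.144 kb, with a range of 5.815 to 21.31 kb. Where the Igkv4 segment came first (16 pairs), the median was 15.57 kb, with a range of 4.685 to 26.43 kb. Both Igkv13 genes, Igkv13-84 on the plus strand and Igkv13-85 on the minus strand, were 96.26% identical and lay 9.333 kb apart, start to start.

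Other kappa families differed in orientation. Igkv12 had 11 of 12 segments opposite to Igkc, Igkv8 had 10 of 12, Igkv6 had 7 of 9 and Igkv5 had 6 of 6, whereas Igkv1 had 3 of 13, Igkv2 had 2 of 10 and Igkv14 had 1 of 8. The smaller families Igkv9 (2 of 6), Igkv15 (2 of 5), Igkv10 (2 of 3) and Igkv17 (1 of 3) were mixed. The 13 Igkv3 segments filled ranks 164 to 176, next to the J segments, with no segment of another family among them, and 12 of them were on the strand of Igkc. Neighbours shared a family in 44 of 175 pairs (25.14%). That is a lower share than in the heavy chain, but family sizes differ and were not adjusted for. Ighv1 held 92 of 194 heavy V segments, whereas Igkv4, the largest kappa family, held 33 of 176. J segments were 316, 264, 287 and 300 bases apart, and Igkj5 lay 2507 bases before Igkc, by the gene records. Without the non-coding transcripts of Igkj2 and Igkj5 the distances from Igkj2 to Igkj3 and from Igkj5 to Igkc were each 4 bases longer, at 268 and 2511 bases.

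**Figure D5:**
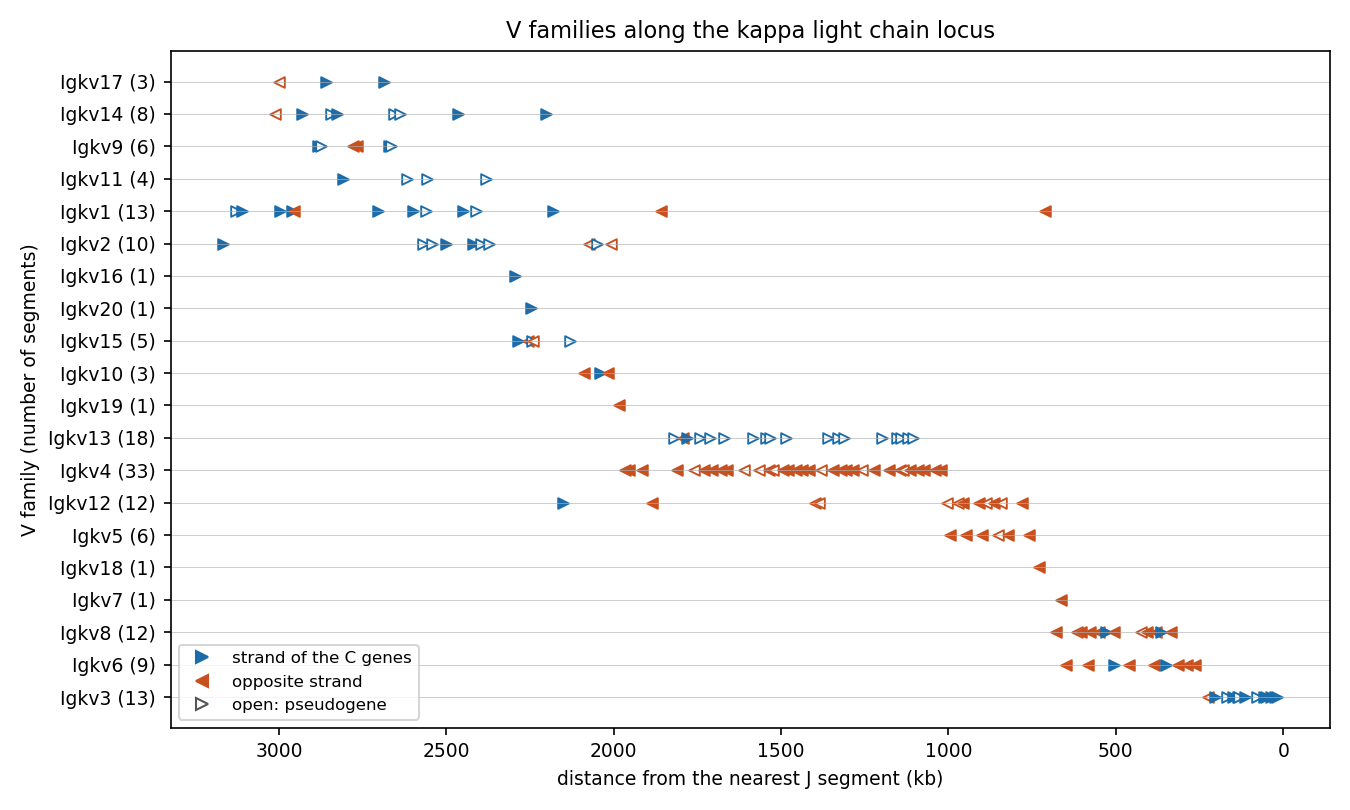
Kappa V segments by family, each at its distance in kb from the nearest J segment, with blue symbols for the strand of Igkc, orange for the opposite strand and open symbols for pseudogenes. Igkv4 (33 segments, all orange) and Igkv13 (18 segments, 17 of them blue) share the middle of the locus, and the 13 Igkv3 segments lie next to the J segments.

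The lambda locus was small and held 3 V genes, 5 J segments and 4 C genes, all on the minus strand. Its order in the direction of transcription was Iglv2, Iglv3, Iglj2, Iglc2, Iglj4, Iglc4, Iglv1, Iglj3, Iglj3p, Iglc3, Iglj1 and Iglc1, so that V genes stood before each of 2 clusters of J and C genes, separated by 109.5 kb between Iglc4 and Iglv1. Iglv2 and Iglv3 were 18.71 kb apart. Iglv1 lay 17.94 kb before Iglj3, and Iglv3 lay 40.97 kb before Iglj2. The first constant exons fell into like pairs: Iglc2 and Iglc3 were 96.19% identical and Iglc1 and Iglc4 85.0%, against 74.01% to 75.46% for the other 4 pairs. Iglc4 was the shortest C gene model of all at 314 bases and was annotated to its stop codon only.

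Gene structure followed the class. Of the 218 V genes 216 had 2 exons in the longest transcript (99.08%), a leader exon and the V exon, and Ighv1-16 and Ighv8-13 had 1. Neither Ighv1-16 nor Ighv8-13 has a start codon record, so their models may be incomplete. Among V pseudogenes 111 of 158 had 2 exons (70.25%). The intron between leader and V exon was a median 83 bases in the heavy chain (76 in Ighv1-47 to 176 in Ighv7-1) and 178 bases in the kappa chain (102 in Igkv8-27 to 405 in Igkv1-88), so most kappa introns were longer. Leader exons had 46 coding bases in 99 of 111 heavy V genes with 2 coding exons and in all 3 lambda V genes, and 49 in 84 of 102 kappa V genes. The coding part of the V exon had similar medians, of 305, 303 and 305 bases in the heavy, kappa and lambda genes. Its range was 301 to 351 bases in the heavy, 293 to 322 in the kappa and 305 to 324 in the lambda genes.

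Lengths of the longest transcript were from 10 bases (Ighd5-2 and others of its class) to 29 bases for D segments, with a median of 17. J segments had 38 bases (Igkj1 and others) to 54 bases (Ighj4, and the non-coding transcript of Ighj2). V genes had a median 358.5 bases, between 294 in Ighv1-16 and 501 in Igkv2-137, and V pseudogenes had 113 (Gm38184) to 405 bases (Ighv1-60). C genes were the longest class, up to 2566 bases in Ighg2b.

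Untranslated 3′ ends were confined to C genes within the immunoglobulin classes. On the longest transcript 10 of the 427 segments had one, all among the 13 C genes, and 12 C genes had one on any transcript. Of protein-coding genes in the same annotation 18292 of 21700 had one (84.29%). No V, D or J segment had a stop codon record, and all 218 V genes carried a tag saying that the end of the coding sequence was not found. Start codon records were present in 215 of 218 V genes, and the 89 untranslated records of V gene transcripts all stood before the coding sequence. The samples were made as 3′ single-cell libraries, per the labels, and the reads of such libraries lie mostly near transcript ends.

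Few segments overlapped another gene. With 1 or more exonic bases shared on the same strand, 3 of 427 segments did so (0.7026%), against 823 of all 32286 genes (2.549%). Within the last 500 exonic bases the shares were near each other, at 3 of 427 segments (0.7026%) and 309 of all genes (0.9571%). Segments also have fewer bases that can overlap. The median exonic length of the longest transcript was 358.5 bases in V genes and 2902.5 in protein-coding genes. Igkv2-137 shared 301 of its 501 exonic bases with the long non-coding RNA Gm42889, and Iglj2 lay with all its 38 bases in an exon of a protein-coding transcript of Iglc2. Reads from such bases cannot be told apart by position. On either strand 9 segments overlapped (2.108%), against 24.44% of all genes.

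Other genes inside the loci were rare, and only Adam6a and Adam6b were protein-coding. Those genes are known for a part in male fertility. Adam6b, chr12:113489511-113492057, lay between Ighd3-1 and Ighd1-1, and Adam6a, chr12:113543908-113546465, between Ighv5-1 and Gm16968, both as 1 exon on the plus strand, opposite to the heavy chain. The remaining 8 genes that touched a locus or small group were non-coding RNAs. Gm30211 spanned all kappa J segments and Igkc without sharing an exonic base with them.

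The most similar other V segment was found for each heavy and kappa V gene. Their V regions spanned 2437.2 kb in the heavy and 3148.7 kb in the kappa chain. The most similar other V segment was a direct neighbour for 9 of 113 heavy V genes (7.965%) and for 11 of 102 kappa V genes (10.78%). Direct neighbours are few among the 194 heavy and 176 kappa V segments. The share that an arbitrary order would give was not worked out, so these counts do not show that similar segments lie apart. It lay a median 123.0 kb away in the heavy chain, at a median identity of 92.25%, and 149.4 kb away in the kappa chain, at 91.84%. For 85 of the 102 kappa genes the most similar segment was on the same strand. Of all kappa V segments 82 lay on the strand of Igkc and 94 opposite, and members of a family often shared a strand. Identity was taken over whole longest transcripts, so annotated lengths that differ lower it. No V segments were identical over the longest transcript, and 5 pairs had 98% identity or more: Igkv6-29 with Igkv6-20 (98.67%), Ighv1-20 with Ighv1-37 and Ighv1-52 with Ighv1-61 (98.58% each), the pseudogenes Ighv8-15 with Ighv8-16 (98.3%), and Ighv1-15 with Ighv1-23 (98.01%).

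Stretches of 90 bases, about the length of a sequencing read, were shared with another transcript by 109 of the 218 V genes and by 20 of the 158 V pseudogenes. None of the 13 C genes shared one. In 8 V genes (3.67%) and 2 V pseudogenes (1.266%), 50% or more of the stretches were shared. Among these 8 V genes, Igkv2-137 shared 51.7% with Gm42889 alone, the non-coding RNA that overlaps it at the same genomic bases. Other partners that are not immunoglobulin segments were the processed pseudogenes Gm49508, Gm49792 and AC165327.1. Those pseudogenes are absent from the deposited annotation. The share among other genes is not given here, so these counts have no background. The pair with most shared stretches was Ighv1-62-2 and Ighv1-71, in which 90.66% and 97.04% of the stretches were common. Their whole transcripts, of 378 and 359 bases, were 94.71% identical, so the pair is not among those of 98% or more. These genes lay 295.8 kb apart, and the next V genes upstream of them, Ighv1-62-3 and Ighv1-72, were 297.0 kb apart and 97.04% identical. In a second such set, Ighv1-52 and Ighv1-61 were 213.7 kb apart, and Ighv1-51 and Ighv1-60 were 213.2 kb apart. Reads that lie wholly in a shared stretch would fit more than 1 gene, whereas reads from the rest of such a gene need not.

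The remaining 5 segments lay outside the main loci, and all of them resembled kappa V segments. Gm50428, Gm50427 and Gm50426 are V pseudogenes at chr19:3134645-3185273, on the plus strand within 50.63 kb. Their closest V segments by alignment were Igkv1-133 (79.41%), Igkv17-127 (81.62%) and Igkv1-88 (67.93%). The non-coding gene 1700030N03Rik, on the minus strand, spanned all 3 without sharing an exonic base. On chromosome 6, outside the kappa locus, stood the LV genes Gm17472, chr6:42980690-42981150, plus strand, and Gm20730, chr6:43081518-43082097, minus strand. Gm17472 was 85.87% identical to Igkv14-100 and Gm20730 84.41% identical to Igkv2-116.

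The other LV genes, Ighv5-8 and Ighv1-13, lay in the heavy locus on the plus strand and each shared its symbol with a V pseudogene on the minus strand at the same place. The LV gene Ighv5-8, chr12:113654967-113655244, had all its 278 bases on exons of the pseudogene, and the LV gene Ighv1-13, chr12:114630680-114630973, all its 294. As transcribed, neither was more than 56.19% identical to any V segment. Their reverse complements aligned to the pseudogenes of the same symbol at 82.49% and 84.0% over the full lengths. These are the same genomic bases read on the other strand, so that match was given by the positions. The values fall below 100% because the pseudogenes have more exonic bases, 337 and 350, and they do not measure sequence differences. Ighv5-8 and Ighv1-13 are the only symbols among the 427 segments that stand for 2 identifiers.

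T cell receptor segments, which are joined by the same enzymes, are set beside them only as the most like classes of the annotation. They numbered 270, with 178 V segments, of which 34 were pseudogenes (19.1%), against 42.02% of the 376 immunoglobulin V segments. With 80 J segments they had 2.225 V segments per J segment, against 26.86 in the immunoglobulin classes.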

How the data were processed

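The only processed data used were the authors' deposited gene annotation, in gene transfer format, which per the file headers is GENCODE M23 (Ensembl 98) for GRCm38. Its values are coordinates, 1-based and in bases, per the file headers and the deposited values; it holds no value for any sample. The authors worked with Seurat 4.0.3, Cell Ranger 6.0.1 and R 4.1.0, per the submitters' processing notes, and with mkfastq 5.0.0 or 6.0.1, per the labels. The filter applied to the release is not given in the sources at hand.

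Members are gene records with a class starting with IG_. For each gene the longest transcript by exonic bases was taken for lengths and exons, and for the printed D and J sequences the longest transcript of the gene's own class. Segments of 1 chromosome within 1 Mb were joined into a locus, and distances are the bases between the end of a segment and the start of the next. Bases after the stop codon were called the 3′ untranslated end. Sequences came from GENCODE M21 transcripts of the same build. Identity is matching positions over alignment columns (edlib 1.3.9.post1, global), and stretches of 90 bases were matched exactly against 141767 transcripts. Python 3.11.15, NumPy 2.4.6 and Matplotlib 3.10.9 were used. The scripts' counting functions were tested on 500 made segments, and 6 of 6 quantities came back in full.

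All C, J and D segments were to be named, with the first and last V segments, the farthest and nearest neighbours, the LV genes, the protein-coding genes inside a locus, the segments outside the loci and the shortest and longest of each class. Other V segments are named because their values stood out, and they were chosen after those values were seen. The members and lists were chosen with earlier results of these data known. No statistical test was run, because segments of an annotation are not replicates and share their origin.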

Additional observations from a re-analysis of the deposited data

How the results depend on the processing

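The number of loci stayed at 5 with joining distances of 0.2 and 5 Mb, and locus spans, the 3′ untranslated ends and the overlap in the last 500 exonic bases moved by less than 1.5 times. With V genes alone the median distance between neighbours rose from 11.15 to 18.24 kb in the heavy chain and from 14.99 to 23.82 kb in the kappa chain, since fewer segments are counted. The share of kappa V segments opposite to Igkc, 53.41%, was 62.75% for V genes alone and 40.54% for pseudogenes alone. The share of V segments with 2 exons, 86.97%, was 99.08% for V genes alone and 70.25% for pseudogenes alone. The count of segments that overlap another gene, 3 on the same strand, was 9 on either strand and 1 where the partner had to be of another class. No paired analysis was possible because no value belongs to a sample. The planned search for octamers in V promoters was not run, because no member stood in the promoter table used. An annotation has no depth, and its gene models, such as V genes without a coding end, set the limits of these values: they describe a reference genome of 1 strain, and expression in the sorted cells was not analysed here.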
